A study of Rattus norvegicus with 2 samples.

Results

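The enzymes of glycolysis and the citric acid cycle were described in the nucleus tractus solitarius (NTS), the hindbrain nucleus where baroreceptor and other visceral afferents end. The set held 39 genes, chosen by name: 20 of glycolysis and lactate formation, 4 of the pyruvate dehydrogenase complex, 4 of the kinases that switch this complex off, and 11 of the citric acid cycle. All 39 were measured, out of 15275 genes with a named probe well above background on both arrays. The female sample was RNA of 5 female Wistar Kyoto rats and the male sample RNA of 5 male Wistar Kyoto rats, a normotensive inbred strain. All rats were aged 9 weeks and had free access to food and water, and each pool held 100 ng of RNA per rat. In what follows females and males stand for these pools. Each sex has 1 single-colour array, so there is no replicate, no test was made, and differences between rats are averaged within a pool and not measured.

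Glycolysis splits glucose into pyruvate in the cytosol, and lactate dehydrogenase converts pyruvate to lactate and back. Pyruvate that enters the mitochondrion is turned into acetyl-CoA by the pyruvate dehydrogenase complex, which the pyruvate dehydrogenase kinases inhibit by phosphorylation. The citric acid cycle then oxidises acetyl-CoA. Neurons cover most of their energy need by oxidation, astrocytes are known for high glycolysis and lactate release, and several steps have isoforms that differ between brain, muscle, liver and blood cells.

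A level here is the log2 processed signal of a probe relative to the 75th percentile of its array, a signal of 3380 for females and 3441 for males. A difference is female minus male on this scale. Over 42877 rat spots, the share well above background was 87.9% for females and 85.5% for males, and no spot was saturated. The error given beside a difference is the spot SD, the SD that repeated spots of a probe show in this difference, as a root mean square over probes. It was 0.069 among bright probes, 0.089 from 4- to 16-fold below the 75th percentile, 0.15 from 16- to 64-fold below it and 0.31 for dimmer probes. Different probes of a gene differed more: their SD was 0.14 over 1339 bright genes with several probes. Gaps between genes are given below beside a combined spot SD, which leaves out this spread between probes and so understates their error. Of the 39 genes, 30 rested on 1 probe and 1 spot, 7 had several probes, and Dlst and Fh had 10 spots each. The tissue label was checked against hindbrain genes. The noradrenaline-synthesis genes Dbh and Th had levels of 3.28 and 3.83 in females and 3.34 and 3.80 in males. Hoxb5, a marker of hindbrain level, had 4.38 in females and 4.41 in males. These are the brightest of the 11 genes of that list. Phox2a and Lmx1b, known from hindbrain neuron development, were dim, with -4.39 and -4.04 in females and -4.48 and -4.27 in males. Tlx3, Hoxb4 and Hoxc4 lay near the 75th percentile, with 0.19, 0.58 and -0.053 in females and 0.26, 0.57 and 0.063 in males.

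Levels differed little between the pools. By any amount, 14 of the 39 genes (35.9%) were higher in females and 25 (64.1%) in males, while over all genes the shares were 45.7% and 54.3%. The median difference was -0.021 for the set and -0.014 for all genes. None of the 39 differed by 2-fold or more, a size reached by 0.111% of all genes towards the female pool and 0.412% towards the male pool. At a difference of 25% or more, taken over the lower pool, 0 genes of the set were higher in females and 1, Pdk4, in males, beside 3.9% and 5.44% of all genes. Of the 39 genes, 33 belonged to the bright class (no more than 4-fold below the 75th percentile), where 0.945% and 2.15% of genes passed that size and no gene of the set did. None of the 39 differed by 50% or more, as 0.903% and 1.55% of all genes did. By over 2 spot SDs, 2 genes of the set were higher in females and 5 in males, or 5.13% and 12.8%. The shares were 7.27% and 12.3% of all genes, and 7.96% and 12.9% of bright genes, so the set was close to the background. All these signs are relative to the rest of the array. Scaled by the spike-in controls, every gene moved by 0.66 towards the female pool, and then all 39 genes were higher there.

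A selection of probes is shown with their sequences, as the array files list them, 5′ to 3′ and in lower case, each of 60 bases. The kinase probes are shown because these genes lay further to the male side than Pdk2. The mutase probe stands for the muscle isoform of its step. The enolase, glyceraldehyde-3-phosphate dehydrogenase and pyruvate kinase probes belong to genes with several probes, not all of which are printed. The printed Eno1 probe, on chromosome 10, had no match in the reference gene names. Positions are those of the array files on the rat build rn4.
Pdk1, chr3:54302974-54303274, + strand: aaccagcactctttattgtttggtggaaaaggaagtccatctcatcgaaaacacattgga
Pdk3, chrX:81116618-81116677, - strand: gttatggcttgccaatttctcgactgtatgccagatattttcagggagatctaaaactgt
Pdk4, chr4:30239150-30241038, - strand: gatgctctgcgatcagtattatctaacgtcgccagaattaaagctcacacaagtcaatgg
Pgam2, chr14:86466146-86466205, - strand: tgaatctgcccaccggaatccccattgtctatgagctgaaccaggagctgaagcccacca
Eno1, chr10:53300221-53300280, - strand: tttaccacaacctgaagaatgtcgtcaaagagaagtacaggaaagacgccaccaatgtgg
Eno2, chr4:160893529-160893588, - strand: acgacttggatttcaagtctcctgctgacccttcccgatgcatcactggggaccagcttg
Gapdh, chr4:161282433-161282601, - strand: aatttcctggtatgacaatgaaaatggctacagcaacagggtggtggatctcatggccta
Gapdh, chr4:161282760-161282907, - strand: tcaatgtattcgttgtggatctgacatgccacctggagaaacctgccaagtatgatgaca
Pkm, chr8:63507002-63507061, + strand: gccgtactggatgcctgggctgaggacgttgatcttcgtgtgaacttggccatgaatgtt
The probes of Idh3a, Pfkl, Hk1 and Ldha, which have some of the larger gaps between isoforms, are not printed because the files do not say whether they lie in coding or untranslated sequence, and they were judged likely or possibly untranslated. The files place the Pfkl probes at chr20:11032281-11032340 and chr20:11032161-11032220 and the Ldha probe at chr1:97412370-97412429, all on the + strand, and give no position for the Hk1 probe. The printed probes were judged coding without an annotation. The spans that the files list for Pdk1, Pdk4 and the Gapdh probes are longer than the 60 bases of a probe.

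**Figure D1:**
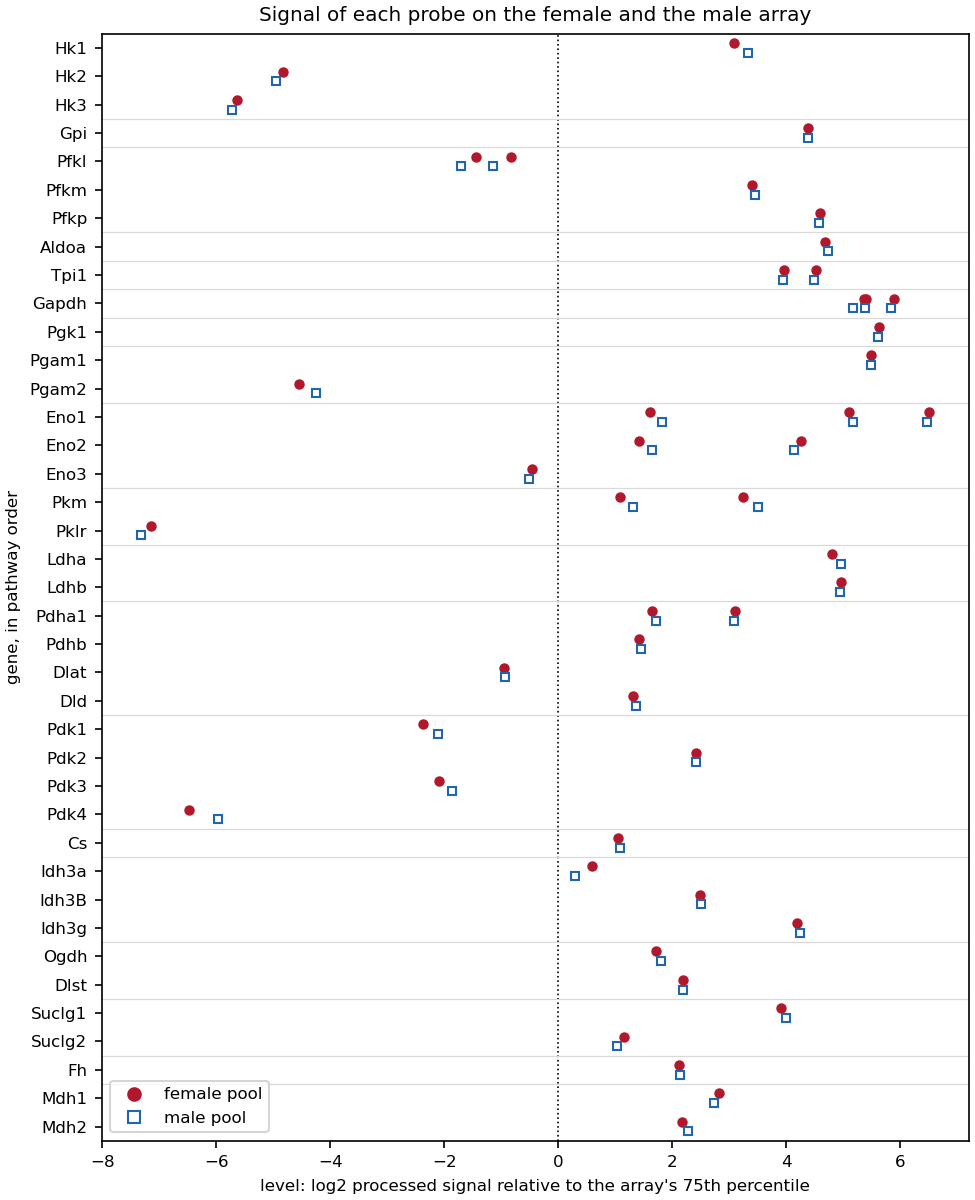
Level of each probe of the 39 genes, in pathway order, as log2 processed signal relative to the 75th percentile of the array (dotted line at 0); filled circles are the female pool, open squares the male pool, and a gene with several probes has several pairs. Both pools lie close together for nearly every probe, from 6.51 and 6.48 for the brightest Eno1 probe down to -7.15 and -7.32 for Pklr.

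Hexokinases trap glucose in the cell by phosphorylation. Hk1, the isoform typical of brain, had a processed signal of 28512 in females and 34446 in males. Its difference was -0.25, a 1.19-fold male excess of 3.57 spot SDs. Hk2, the isoform of muscle and insulin-sensitive tissue, gave 119 and 111, and Hk3, known from white blood cells, gave 68.1 and 65.4 in the female and the male pool. Their differences of 0.12 and 0.085 lay within the spot SD of 0.15. The difference of Hk1 minus that of Hk2 was -0.37, and minus that of Hk3 it was -0.33, against a combined spot SD of 0.17. The levels of Hk2 and Hk3 were over 16-fold below the 75th percentile on both arrays, whereas Hk1 was over 4-fold above it. Brightness also depends on the probe, so no order of abundance between isoforms is read from levels here or in the other steps.

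Gpi, which isomerises glucose 6-phosphate, gave 70449 in females and 71405 in males, a difference of 0.0063. Phosphofructokinase, the committed step, has 3 subunits. The muscle-type subunit Pfkm gave 35841 and 37412, and the platelet-type subunit Pfkp, common in brain, 81712 and 81752. Their differences of -0.036 and 0.025 were below the spot SD. The liver-type subunit Pfkl stood apart, with 1894 and 1243 from its pair of probes in females, against 1545 and 1049 in males. Both probes lay on the female side, at 0.32 and 0.27. The median of 0.29, a 1.23-fold female excess, was 4.26 spot SDs and the highest difference of the set. It exceeded that of Pfkm by 0.33 and that of Pfkp by 0.27, against a combined spot SD of 0.098. The brighter Pfkl probe lay in a band of array rows where 4.07% of dim spots had at least 2-fold more signal for males, against 3.02% in a neighbouring band and 0 to 2.15% in the others of 20 bands. The dimmer Pfkl probe lay outside these 2 bands.

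The middle of the pathway was nearly level between the pools. Aldoa, which cleaves fructose 1,6-bisphosphate, gave 86381 in females and 91203 in males, a difference of -0.053. The probes of Tpi1, which interconverts the triose phosphates, gave differences of 0.028 and 0.040. Pgk1, which makes ATP at the next step, gave 167679 and 168509, a difference of 0.019. Gapdh, the dehydrogenase between them and a common loading control, had 3 probes with signals of 142122, 200012 and 138610 in females and 123451, 196867 and 143449 in males. Their differences were 0.23, 0.049 and -0.024, so the probes disagreed by 0.25 and the sign of Gapdh depends on the probe. The probe at 0.23 lies at chr4:161282310-161282369 and those printed above gave 0.049 and -0.024.

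Phosphoglycerate mutase and enolase have brain and muscle isoforms. Pgam1, the brain type, gave 151736 in females and 154885 in males, a difference of -0.0039. Pgam2, the muscle type, gave 145 and 181, a difference of -0.29 or a 1.23-fold male excess. That is 1.96 spot SDs at this brightness, and Pgam2 lay below Pgam1 by 0.29 against a combined SD of 0.17. Eno3, the muscle enolase, gave 2454 and 2394, a difference of 0.061 that was below its spot SD. Pgam2 and Eno3 therefore lay on opposite sides. Skeletal muscle markers also went both ways, with 5 of 12 measured genes higher in females and 7 in males and a median of -0.044. Their summed level was 1.79 times the 75th percentile in females and 1.85 times in males, and without the brightest gene, Tnnt1, both sums were 1.06. Ckm, the muscle creatine kinase, had the largest difference of that list at -0.97, with a spot SD of 0.31, and Myh4 was not well above background on both arrays. The part of muscle RNA in the Pgam2 value was not tested.

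The ubiquitous enolase Eno1 had 3 probes. The files place them on chromosomes 5, 3 and 10, and 2 of them carried accessions that the reference table of gene names did not list, so copies of the gene elsewhere may share their signal. The signals were 115981, 308054 and 10336 in females and 123263, 306466 and 12144 in males. The differences were -0.062, 0.033 and -0.21 in that order, with a median of -0.062. Eno2, the neuron-specific enolase, had probes at 65010 and 9059 in females and 60812 and 10789 in males. They disagreed by 0.35, at 0.12 and -0.23, so neither sign holds for the gene. The sign of Eno1 and of Eno2 turned when the brightest probe was used, to 0.033 and 0.12.

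**Figure D2:**
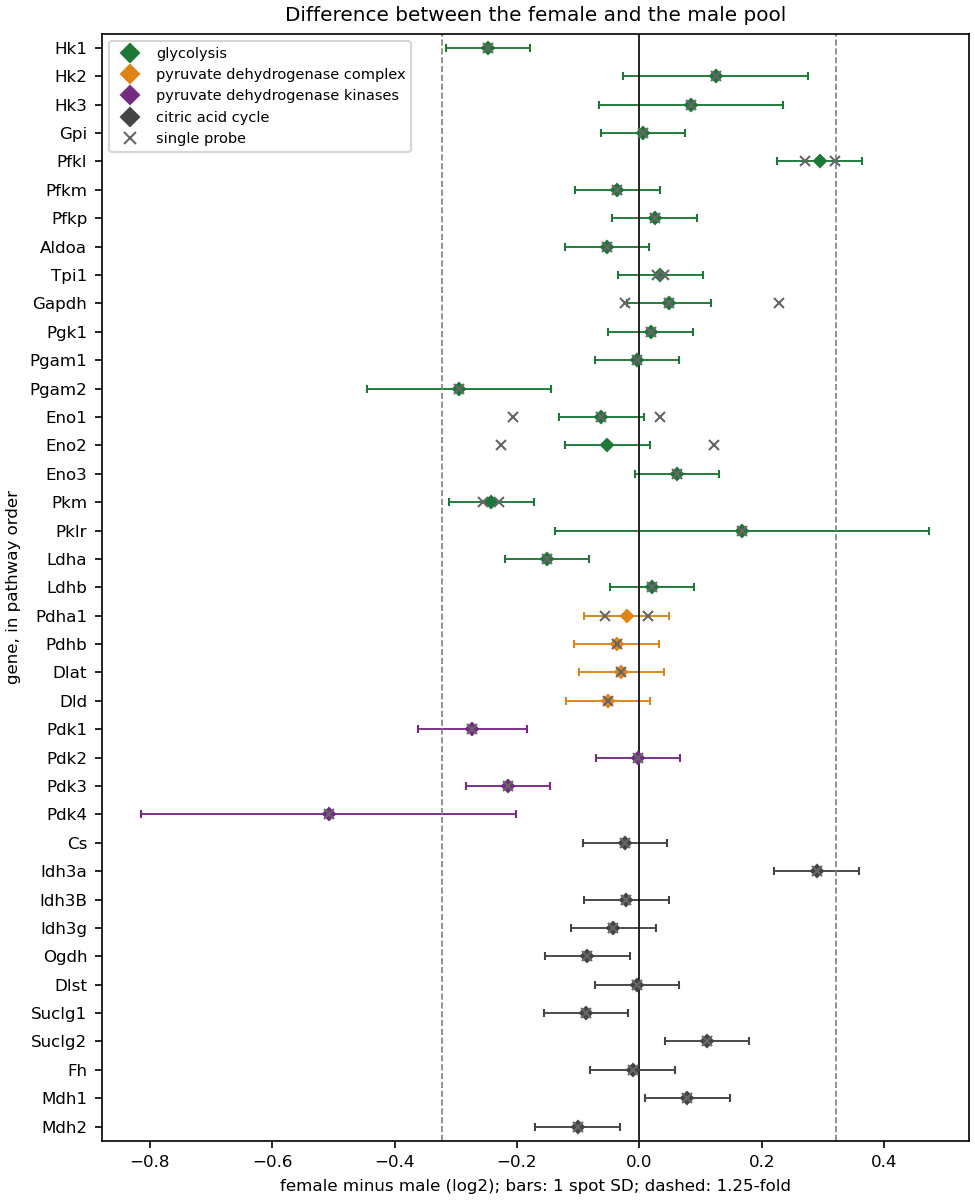
Difference of each gene, female minus male on the log2 scale, in pathway order, coloured by part of the pathway; diamonds are genes, bars 1 spot SD at that brightness, crosses single probes, and dashed lines a difference of 25%. Only Pdk4 lies beyond a dashed line, the probes of Pfkl, Pkm and Tpi1 lie close together, and those of Eno1, Eno2 and Gapdh spread on both sides of 0.

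Pyruvate kinase makes the pathway's final ATP. Pkm, the gene of the M1 and M2 forms, had probes at 32044 and 7128 in females and 38928 and 8505 in males. Which of these forms each probe reads was not tested. The probes lay 0.026 apart, at -0.26 and -0.23, and the median of -0.24 was a 1.18-fold male excess of 3.50 spot SDs. Pklr, the gene of the liver and red cell forms, was the dimmest of the set, with 23.8 and 21.6. Its difference of 0.17 was below the spot SD of 0.31. Red blood cell markers were higher in males in 9 of 9 measured genes, with a median of -0.51. Their summed level was 181 times the 75th percentile in females and 228 times in males. Neutrophil and white blood cell markers, the cells in which Hk3 is known, were higher in males in 8 of 9 measured genes. That list had a median of -0.58 and a summed level of 0.423 and 0.593 times the 75th percentile in the female and the male pool. Epb42 and Rhag of the red cell list, and Elane, Mmp8 and Cd3e of the white cell list, were not well above background on both arrays. Pklr and Hk3 were both above 0, within their spot SD, and the part of blood cells in their values was not tested.

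Lactate dehydrogenase is built from A subunits, prevalent in muscle and glycolytic cells, and B subunits, prevalent in heart and neurons. Ldha gave 94344 in females and 106620 in males. Its difference of -0.15, a 1.11-fold male excess, was 2.18 spot SDs and rested on 1 spot within the band of rows at 4.07%. Ldhb gave 105209 and 105557, a difference of 0.021. The difference of Ldha minus that of Ldhb was -0.17, against a combined spot SD of 0.098. Over the 20 genes of glycolysis and lactate formation, 11 were higher in females and 9 in males, with a median of 0.012. The shares of all genes were 45.7% and 54.3%.

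By sign, all 4 genes of the pyruvate dehydrogenase complex and all 4 of its kinases lay on the male side. The male share of all genes was 54.3%. The median difference was -0.033 for the complex and -0.24 for the kinases. Pdha1, the E1 alpha subunit, had probes at 28906 and 10614 in females and 29131 and 11229 in males, with a median difference of -0.020. Pdhb, the E1 beta subunit, differed by -0.037, the E2 core gene Dlat by -0.029 and Dld, the E3 subunit shared with other complexes, by -0.051. These differences were all below the spot SD, and the pairs of subunits differed from each other by at most 0.031. The male sign of the complex also depended on the processing. With normexp background correction Pdha1, Dlat and Dld turned to 0.031, 0.039 and 0.037. Scaling by the array median turned Pdha1 to 0.014 and Dlat to 0.0055. Pdhb stayed below 0 in both, and Dld with the array median. The brighter Pdha1 probe alone gave 0.015.

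All 4 pyruvate dehydrogenase kinase genes were on the male side, with a median of -0.24, although Pdk2, at -0.0020, was above 0 with 5 alternatives (0.086 with normexp), and all 4 lay on the female side with spike-in scaling. Pdk4, the isoform known for induction by fasting and fatty acids, gave 37.7 in females and 54.6 in males. The difference of -0.51, a 1.42-fold male excess, was 1.66 spot SDs at this brightness and was below 25%, at -0.27, with normexp background correction. Pdk1, the isoform known as a hypoxia target, gave 649 and 799, a difference of -0.27 and 3.06 spot SDs. Pdk3 gave 796 and 940, a difference of -0.21 and 3.11 spot SDs, from 1 spot within the band of rows at 4.07%. Pdk2, the widespread isoform, gave 17979 and 18328. Its difference lay above that of Pdk1 by 0.27 and above that of Pdk3 by 0.21, against combined spot SDs of 0.11 and 0.098. With 4 genes of 1 spot each the count describes these arrays only. Pooled tissue does not separate fewer cells of a type from less RNA per cell, here or in any other gene.

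**Figure D3:**
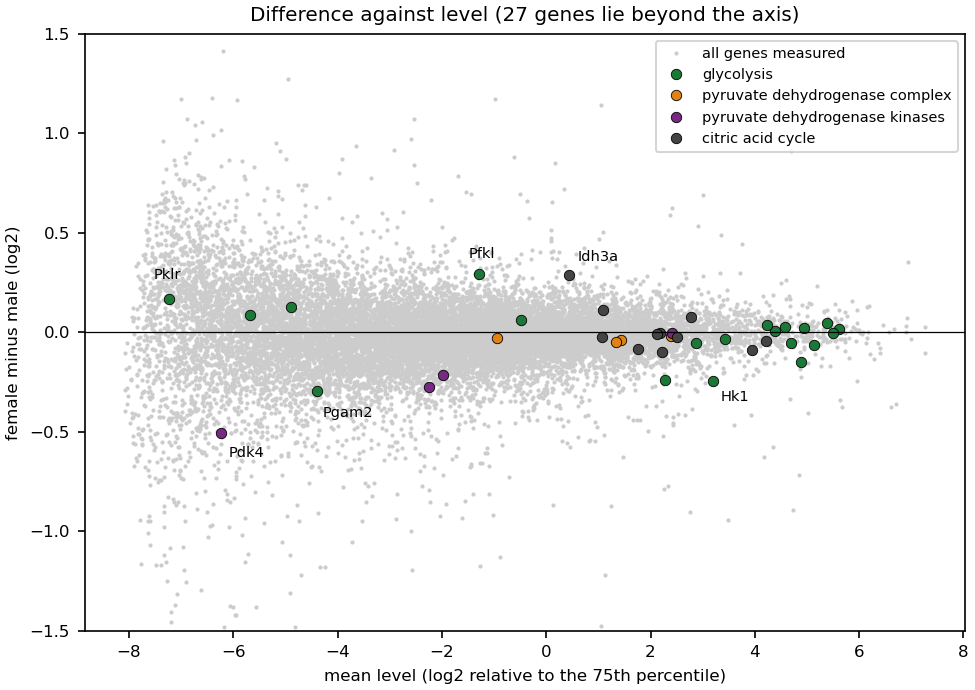
Difference (female minus male, log2) against mean level for all 15275 genes measured (grey) and the 39 enzymes (coloured by part of the pathway); 27 genes lie beyond the axis limit of 1.5. The spread of all genes widens towards low levels, where Pdk4, Pgam2 and Pklr lie, and Pfkl and Idh3a sit near the upper edge of genes of their level.

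The citric acid cycle begins with citrate synthase, Cs, which gave 7017 in females and 7260 in males, a difference of -0.023. The NAD-dependent isocitrate dehydrogenase, a regulated step, is built from 3 subunits. Its catalytic subunit Idh3a gave 5084 and 4234. The difference of 0.29, a 1.22-fold female excess, was 4.19 spot SDs and rested on 1 spot at chr8:58155604-58155663. The partner subunits did not share it, since Idh3B gave 18973 and 19600 and Idh3g 61718 and 64716, with differences of -0.021 and -0.043. The difference of Idh3a exceeded those of Idh3B and Idh3g by 0.31 and 0.33, or 3.18 and 3.40 combined spot SDs. These SDs leave out the spread between probes, an SD of 0.14 among bright genes. Among alternatives without spike-in scaling the Idh3a difference ran from 0.23 to 0.32.

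The later steps of the cycle differed by little. Ogdh, the E1 subunit of oxoglutarate dehydrogenase, gave -0.085, and its E2 partner Dlst, with 10 spots, -0.0037. The spots of Dlst ran from 14758 through a median of 15370.2 to 15652 in females and from 15214 through 15651 to 15908 in males. Their differences had an SD of 0.023, with 5 spots higher in each pool. Fumarase, Fh, also with 10 spots, ran from 13751 through 14876 to 15099.5 in females and from 14499 through 15101 to 15697 in males. Its mean difference was -0.011 with an SD of 0.049 over spots, and 4 spots were higher in females. In both genes the spots of the arrays overlapped, and these best measured members showed no difference beyond 1 SD.

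Succinyl-CoA ligase pairs a common alpha subunit, Suclg1, with a beta subunit that sets the nucleotide. Suclg1 gave 50542 in females and 54646 in males, a difference of -0.087. Suclg2, the GTP-type beta subunit, gave 7485 and 7057, a difference of 0.11 or 1.60 spot SDs. The ATP-type beta subunit Sucla2, which is not in the set, gave 13627 in females and 13294.5 in males. Its difference of 0.061 was below the spot SD of 0.069. The cytosolic malate dehydrogenase Mdh1 gave 23717 and 22867, a difference of 0.078, and the mitochondrial Mdh2 gave 15215 and 16606, a difference of -0.10. Mdh1 thus lay above Mdh2 by 0.18, against a combined spot SD of 0.098. Of the 11 cycle genes 3 were higher in females and 8 in males, beside 45.7% and 54.3% of all genes. Scaling by the array median turned Cs, Idh3B, Dlst and Fh to the female side, at 0.011, 0.014, 0.031 and 0.024. Idh3g, Ogdh, Suclg1 and Mdh2 stayed below 0 with it. Together with the 4 genes of the pyruvate dehydrogenase complex the median was -0.023, and with scaling by the array median it was 0.011.

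The set holds 4 X-linked genes by the array files' positions, Pgk1, Pdha1, Idh3g and Pdk3. Their differences ran from -0.21 for Pdk3 to 0.019 for Pgk1 with a median of -0.032, and 1 of 4 was higher in females. The other 35 genes had a median of -0.021, and all 494 X-linked genes measured had a median of -0.016.

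Other genes of the pathway were taken from lists of related enzymes, regulators and transporters. Of 7 further glycolysis enzymes measured, 3 were higher in females and 4 in males, with a median of -0.050 and none at 25% or more. Ldhd, the D-lactate dehydrogenase, gave -0.16 and Eno4 0.13, while Aldoc, the brain aldolase known from astrocytes, gave -0.095. The Eno4 difference lay within its spot SD of 0.15. The testis isoforms Gapdhs, Pgk2 and Ldhc, and Ldhal6b, were not well above background on both arrays. Among 10 regulators and gluconeogenic genes 4 were higher in females and 6 in males, with a median of -0.033. One of the 10 reached 25%. This was Fbp1, a fructose bisphosphatase, at -0.51 with a spot SD of 0.089. Hif1a, the hypoxia-inducible factor, gave 0.29, Pfkfb4 -0.19 and Pfkfb3 0.11. Each of these had a spot SD of 0.15, and Pfkfb3 lay within it.

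The 10 transporters of glucose, lactate and pyruvate had 5 genes on each side, a median of 0.00047 and none at 25% or more. Slc2a1, the glucose transporter of the blood-brain barrier, differed by 0.26 with a spot SD of 0.069. Slc2a4, the insulin-responsive transporter, gave 0.11, the monocarboxylate transporter Slc16a1 0.091 and the neuronal glucose transporter Slc2a3 -0.088. Each of these 3 had a spot SD of 0.089, and Slc2a3 lay within it. Endothelial markers lay on the female side with Slc2a1 in 8 of 10 genes, with a median of 0.056 and a summed level of 3.19 times the 75th percentile in females and 3.05 times in males. Without its brightest gene, Cldn5, the sum was 1.85 in females and 1.89 in males, which turns its direction. Their part in the Slc2a1 value was not tested. Of 18 further genes of the cycle and of pyruvate handling, 9 lay on each side, with a median of 0.0032 and none at 25% or more. Me1, the cytosolic malic enzyme, gave -0.27, the dim Me2 0.13, within its spot SD of 0.15, and Ogdhl -0.10. The 4 succinate dehydrogenase genes Sdha, Sdhb, Sdhc and Sdhd gave -0.054, -0.0026, -0.026 and 0.032.

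**Figure D4:**
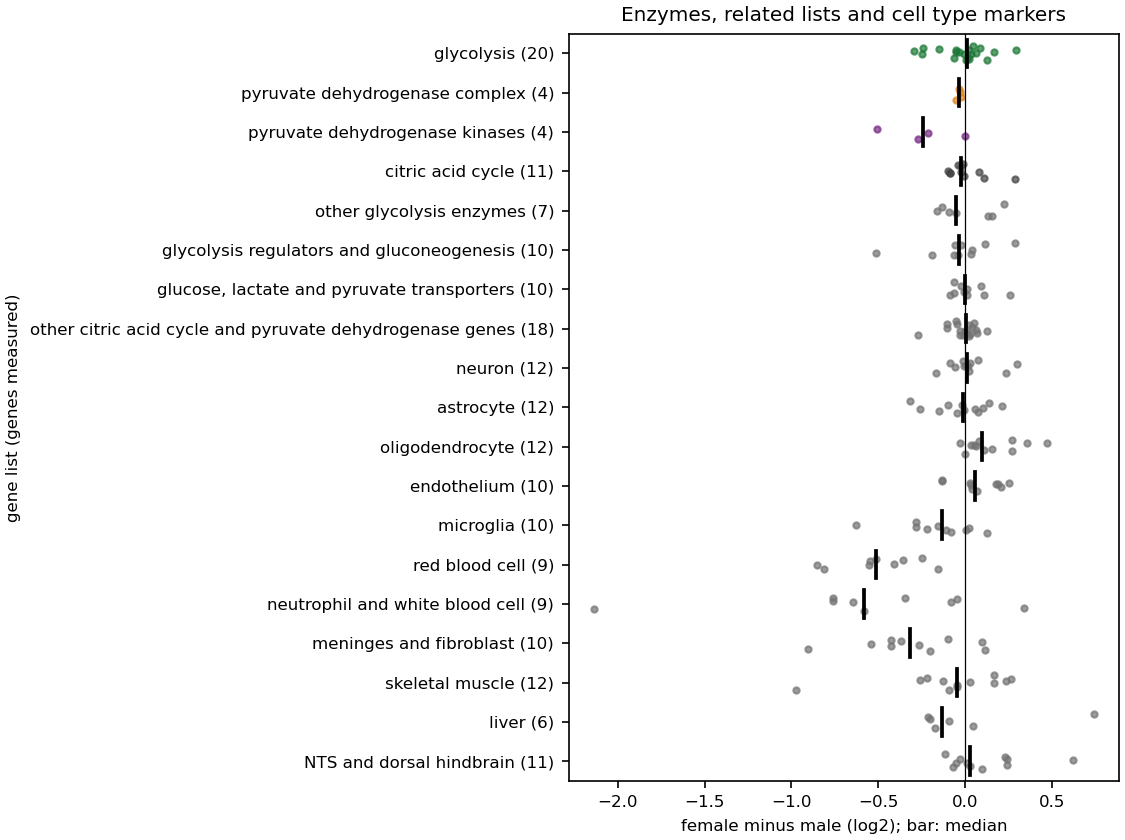
Differences (female minus male, log2) of the 4 parts of the pathway (coloured), related gene lists and cell type markers (grey); each point is a gene, black bars are medians, and the number measured is in parentheses. The enzymes and related lists centre near 0 apart from the 4 kinases, while markers of red blood cells, white blood cells and meninges lie on the male side.

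Markers of the cells in the tissue were set beside the enzymes. Of 12 neuronal genes 7 were higher in females and 5 in males, with a median of 0.011 and summed levels of 94.3 and 90.8 times the 75th percentile. Slc32a1 gave 0.30, Snap25 0.24, Nefl -0.16 and Nefm -0.086. Of 12 astrocyte genes 5 were higher in females and 7 in males, with a median of -0.013 and summed levels of 81.6 and 77.8. The brightest, Atp1b2, made up 48.7 and 44.2 of these sums, and without it they were 32.9 in females and 33.6 in males, which turns their direction. Gfap gave -0.32, Aqp4 -0.26, Gjb6 0.21 and Slc1a3 -0.15.

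Among myelin genes, 10 of 12 oligodendrocyte genes were higher in females, with a median of 0.095 and summed levels of 27.0 and 26.0. Among them Mog differed by 0.47, Mobp by 0.36, and Mag and Mal by 0.27 each. Among immune genes of the tissue, 7 of 10 microglial genes were higher in males, with a median of -0.13 and summed levels of 20.7 and 21.7, led by Cd68 at -0.63. Among genes of the coverings, 8 of 10 meningeal and fibroblast genes were higher in males, with a median of -0.32, summed levels of 8.98 and 14.5, and Col1a2 at -0.90. Of 6 liver genes measured, 2 were higher in females and 4 in males, with a median of -0.13, summed levels of 49.4 and 56.1, and Serpina1 at 0.74. Tf and Ttr, also made in brain by oligodendrocytes and choroid plexus, made up nearly all of these sums, which were 0.0842 in females and 0.0643 in males without them. The hepatocyte-defining Alb, Fga, Fgb and Cyp2e1 were not well above background on both arrays. Of 11 hindbrain genes 7 were higher in females, with a median of 0.026, summed levels of 61.5 and 58.9, and Prlh at 0.62. The part of these cell types in the values of Hk1, Pkm, Ldha, Pfkl, Idh3a and the kinases was not tested.

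**Figure D5:**
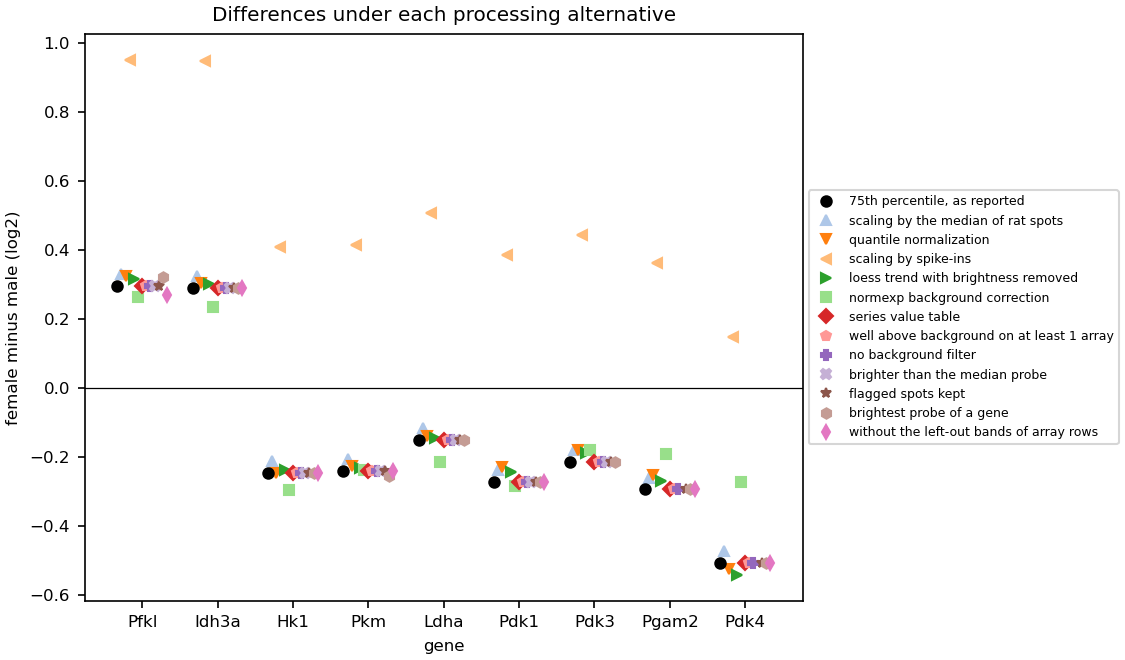
Difference (female minus male, log2) of 9 genes under the reported processing (black circles) and each of 12 alternatives. Pfkl and Idh3a lie above 0 and the other 7 below 0 under every alternative that gives them a value except scaling by spike-ins, which moves all 9 above 0, and Pdk4 shrinks to -0.27 with normexp correction. Keeping flagged spots or loosening the background filter could not change these values, and the value table could hardly do so.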

How the data were processed

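The deposited processed signal intensity comes from single-colour Agilent arrays and was background-subtracted and spatially detrended within each array, with no scaling between arrays, per the file headers. The headers name Agilent Feature Extraction 10.7.3.1, and the submitters' processing notes give 9.1. The deposited value table held the same intensity values times 1 factor per array, to within rounding, with column medians of 27.3 (female) and 28.0 (male), on a linear scale and not centred. These factors put the 75th percentile of each array at 100, so the table holds the same scaling as used here. It was used as an alternative only.

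Each log2 signal was set relative to the 75th percentile of its array over 42877 rat spots. The 430 spots with an outlier flag were left out, the spots of a probe were averaged, and a gene took the median of its probes well above background on both arrays. Gene names are those of the array files, where Pkm2 and Fh1 are called Pkm and Fh. Accessions of 46 of 48 probes matched the GRCr8 reference table. Every member is named, and from each other list up to 4 genes with the largest difference, with a few more that were chosen after their values were seen. Some genes of these lists are not reported here by name. The members and lists were chosen with earlier results of these data known. The steps were checked on simulated data with known changes. Python 3.11.15 was used, and R 4.3.3 with limma 3.58.1 for normexp. The number of arrays, 1 per sex, limits the precision.

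The alternatives were 5 other scalings or corrections, the value table, 3 other filters on brightness, keeping spots with an outlier flag, taking the brightest probe for each gene, and leaving out array rows.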

Additional observations from a re-analysis of the deposited data

How the results depend on the processing

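No paired analysis was possible because each sex has 1 array. Scaling by the 8 spike-in probes shifted every gene by 0.66 towards the female pool, for a cause that was not tested. It gave medians of 0.67 for glycolysis and 0.63 for the pyruvate dehydrogenase complex with the citric acid cycle, put 38 genes at 25% or more on the female side and 0 on the male side, and turned Pdk4 to 0.15. At 25% or more, scaling by the array median put 2 genes on the female side (Pfkl and Idh3a) and quantile normalization 1 (Pfkl). The median of all genes moved too, to 0.020 with the array median, 0.0084 with quantile normalization and 0.64 with spike-ins. The share of all genes at 25% or more was not counted under these scalings, so these counts are not set against it. The male count of 1 became 0 with normexp, among probes brighter than the median probe, which leaves Pdk4 out, and at 50% or more. The median of all 39 genes was -0.021 and turned to 0.014 with scaling by the array median. No gene reached 2-fold under the alternatives run. Leaving out 2 of 20 bands of array rows, which hold 10.3% of rat spots, removed Ldha and Pdk3 and left Pfkl at 0.27. Leave-one-out was not possible with 1 array per sex. Signal over background limits Pklr, Pdk4, Hk2, Hk3 and Pgam2, where a spot SD of 0.15 or 0.31 hides differences of the size seen in bright genes.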
